A study of Caenorhabditis elegans with 95 samples.

Results

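The transcripts of *hsp-6*, *hsp-60* and *dnj-10*, which encode chaperones of the mitochondrial matrix, were measured as RNA-seq read counts in whole *C. elegans* under doxycycline (Dox). The 3 genes were taken by symbol from the 46904 genes of the count table, and each had 1 gene entry. RIAILs are recombinant inbred advanced intercross lines, here from a cross of CB4856 (Hawaii) with QX1430, a strain of N2 background that lacks known confounder genes. Each line is a fixed mosaic of both genomes, in which genes close together mostly come from the same parent. The series holds 85 RIAILs with 1 library each, 4 libraries of N2, which are not QX1430, and 6 of CB4856. All 95 libraries came from worms on 15 μg/mL Dox, an antibiotic that blocks mitochondrial translation, on a bacterial diet of HT115. Larvae were placed on Dox at the L1 stage and harvested at L4, whereas the sample labels describe the lifespan protocol with 5FU, so the use of 5FU for these libraries is not settled. Control libraries are not used here, so a response to Dox itself was not measured.

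HSP-6 is the mitochondrial Hsp70, which pulls incoming proteins through the inner membrane and helps them fold. HSP-60 is the mitochondrial chaperonin, a ring-shaped folding chamber that works with the small co-chaperonin Hsp10, and DNJ-10 is a DnaJ protein, the class of co-chaperone that hands clients to Hsp70 and stimulates its ATPase. In worms, *hsp-6* and *hsp-60* are the standard reporters of the mitochondrial unfolded protein response (UPRmt), in which the transcription factor ATFS-1 moves to the nucleus when its import into mitochondria falls. In the WBcel235 annotation *hsp-6* (C37H5.8) lies on chromosome V at 4824124 to 4826760 on the minus strand. *hsp-60* (Y22D7AL.5) lies on chromosome III at 1619742 to 1625803, and *dnj-10* (F22B7.5) lies on the same chromosome at 8631165 to 8633565, both on the plus strand. No other annotated gene overlaps any of the 3 loci.

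All 3 genes were well measured, with *hsp-6* at the highest level per length. Library totals were 22121202 to 23879871 counts. A RIAIL library held 10523 to 21522 counts of *hsp-6*, 4517 to 12629 of *hsp-60* and 1063 to 2128 of *dnj-10*. Levels are given as CPM, counts scaled to a common library total with TMM factors. Per kilobase of exon, the median level over RIAILs was 262 CPM for *hsp-6*, 163 CPM for *hsp-60* and 39.6 CPM for *dnj-10*. These medians lay above those of 97.1%, 95.5% and 84.5% of 16052 protein-coding genes, respectively. Within a single RIAIL library the level per length of *hsp-6* was 5.23 to 9.21 times that of *dnj-10* (median 6.71) and 1.16 to 2.71 times that of *hsp-60* (median 1.56), and the order of the 3 genes was thus the same in every RIAIL. The ratio of *hsp-60* to *dnj-10* ran from 2.41 to 6.76 (median 4.39).

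Over the 85 RIAILs, *hsp-60* varied most. *hsp-6* ran from 452 CPM in QX543 through a median of 645 to 913 in QX575, a 2.02-fold range. *hsp-60* ran from 194 CPM in QX543 through a median of 346 to 546 in QX567, a 2.82-fold range. *dnj-10* ran from 45.6 CPM in QX543 through a median of 67.2 to 89.02 in QX547, a 1.95-fold range. One line, QX543, thus had the lowest value of all 3 genes, while the highest values belonged to 3 different lines. On the log2 scale the SD over RIAILs was 0.24 for *hsp-6*, 0.39 for *hsp-60* and 0.21 for *dnj-10*, against 0.23, 0.29 and 0.13 between libraries of 1 parental strain. These last values are pooled over strains that differed, with SDs of 0.29, 0.43 and 0.10 in N2 and 0.19, 0.16 and 0.15 in CB4856. Equality of the RIAILs was tested with edgeR's quasi-likelihood test, in which the residual spread comes from the parental libraries. None of the 3 genes was called, with unadjusted p = 0.380, 0.106 and 0.121 and adjusted p = 0.652, 0.390 and 0.414 in the same order (edgeR), whereas 5.52% of 17058 genes were called at an adjusted p under 0.05. With 1 library per line, a difference between lines and a difference between libraries cannot be told apart for any single line, and in whole worms fewer cells of a type and less RNA per cell cannot be told apart either.

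**Figure D1:**
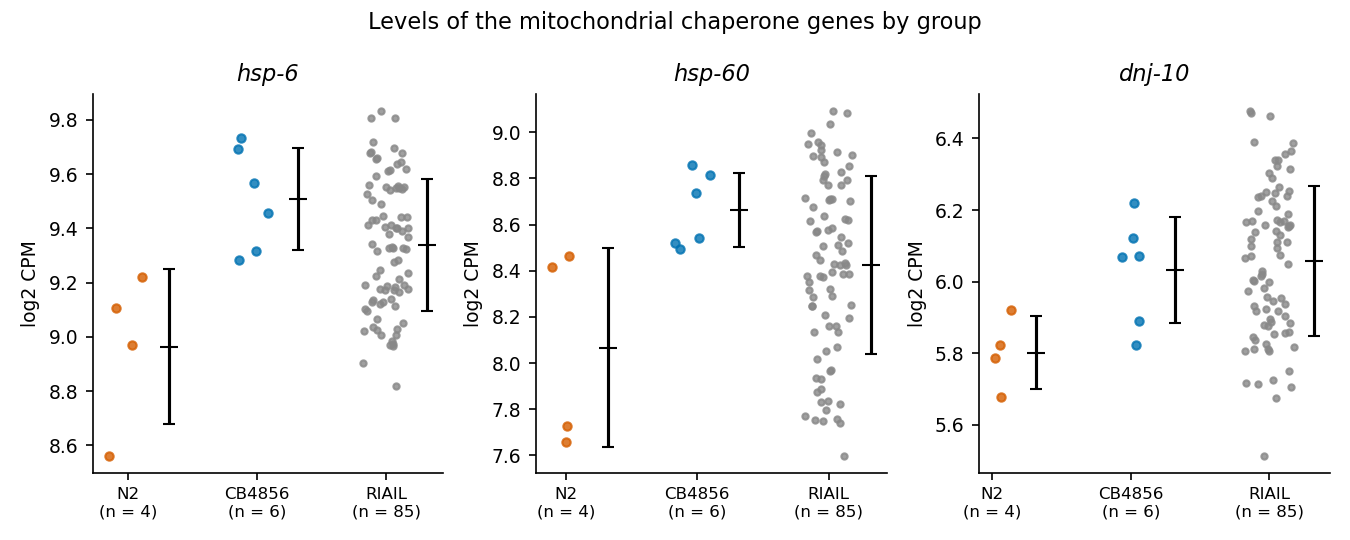
Levels of the 3 genes (vertical axis, log2 CPM) in each library of N2, CB4856 and the RIAILs. Each point is 1 library, and the black bar gives the mean and SD of its group. All 6 CB4856 libraries lie above all 4 N2 libraries for *hsp-6* and *hsp-60*, and 4 of 6 do so for *dnj-10*.

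CB4856 was compared with N2 to ask whether the parental strains differ in chaperone transcripts on Dox. *hsp-6* was at 378, 551, 597 and 501 CPM in N2 replicates 1 to 4, and at 623 (lowest), 730.5 (median) and 851 (highest) in CB4856. *hsp-60* was at 212, 353, 341 and 202 CPM in N2, and at 361, 399.8 and 463 in CB4856. *dnj-10* was at 55.1, 56.5, 60.5 and 51.1 CPM in N2, and at 56.6, 67.2 and 74.4 in CB4856. The groups did not overlap for *hsp-6* and *hsp-60* and did so for *dnj-10*, and for *hsp-60* the N2 libraries fell apart into 2 high and 2 low values. The share of all genes whose groups do not overlap is not given here, so whether such a separation is unusual is left unsaid. Both genes passed the test as higher in CB4856, with log2 fold changes for *hsp-6* and *hsp-60* of 0.59 (SE 0.13, adjusted p = 0.0112) and 0.61 (SE 0.17, adjusted p = 0.0295, edgeR's quasi-likelihood test over 15718 genes). In the same test 8.79% of genes were called as higher and 7.28% as lower in CB4856. *dnj-10* had a log2 fold change of 0.29 (SE 0.09) and was not called (adjusted p = 0.0610, edgeR), but it was called with DESeq2 (adjusted p = 0.0346), with the first principal component of the libraries as a covariate (adjusted p = 0.0407, edgeR) and without N2 replicate 1 (adjusted p = 0.0461, edgeR). *hsp-60* no longer passed without N2 replicate 4 (adjusted p = 0.0829) and without CB4856 replicates 2, 3 or 6 (adjusted p = 0.0597, 0.0595 and 0.0596, edgeR). In the 8 libraries whose titles give a batch number, blocked by that number, *hsp-6* was no longer called (log2 fold change 0.53, adjusted p = 0.0601) and *hsp-60* was (0.66, adjusted p = 0.0298, edgeR), whereas in the same libraries without the block neither was (0.52 and 0.62, adjusted p = 0.0682 and 0.0853, edgeR). With all 10 libraries blocked by library letter, neither gene passed (0.56 and 0.81, adjusted p = 0.253 and 0.0851, edgeR). The sources do not say whether libraries of a parental strain are separate cultures. The tests therefore rest on the spread among these libraries, and that spread may be technical.

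The proportions between the 3 genes were also compared. The log2 ratio of *dnj-10* to *hsp-6* was -2.78, -3.28, -3.30 and -3.29 in N2 replicates 1 to 4, and between -3.66 and -3.35 in CB4856. All N2 libraries were thus above all CB4856 libraries, and the mean was lower by 0.31 in CB4856 (difference -0.31, SE 0.14, p = 0.00476 in an exact two-sided permutation test over 210 splits, adjusted p = 0.0143 over 3 ratios). Without N2 replicate 1 the difference was -0.18 and no longer passed (adjusted p = 0.143 over 3 ratios, exact permutation test). The ratio of *hsp-60* to *hsp-6* did not separate the strains (-0.90 ± 0.29 in the 4 N2 and -0.85 ± 0.20 in the 6 CB4856 libraries, mean ± SD, p = 0.733, exact permutation test), with a difference of 0.05 (SE 0.17) that was -0.09 without N2 replicate 4. The ratio of *hsp-60* to *dnj-10* was 2.26 ± 0.36 in N2 and 2.63 ± 0.16 in CB4856 (SD), and the difference of 0.36 (SE 0.19) did not pass (p = 0.0524, exact permutation test, adjusted p = 0.0786 over 3 ratios). It passed without N2 replicate 2 (0.49, adjusted p = 0.0357) or CB4856 replicate 5 (0.41, adjusted p = 0.0238, exact permutation tests). It did not pass when any other single library was left out. The adjusted p then ran from 0.0536 without N2 replicate 3 (0.44) to 0.196 without N2 replicate 1 or 4 (0.26 and 0.27, exact permutation tests).

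Of 229 other listed mitochondrial genes tested between the parental strains, 15 (6.55%) were called as higher in CB4856, against 8.79% of all genes, and 1 (0.437%) as lower, against 7.28%. Of 10 mitochondrial proteases, 4 were higher and none lower, namely *ymel-1* (log2 fold change 0.56, SE 0.08), *ppgn-1* (0.50, SE 0.09), *spg-7* (0.39, SE 0.08) and the Lon protease gene *lonp-1* (0.38, SE 0.09). Of 18 import genes, *tomm-70* (0.44, SE 0.09), an outer membrane receptor, and *tin-44* (0.43, SE 0.10), which anchors mitochondrial Hsp70 at the import channel, were higher. Of 10 elongation and translation factors, *gfm-1* (0.53, SE 0.13) and *tufm-2* (0.41, SE 0.12) were higher. Of 16 UPRmt regulators 1 was called, *zip-3* (0.58, SE 0.08), a bZIP factor that represses ATFS-1, and *atfs-1* itself was not called (0.19, SE 0.13, adjusted p = 0.360, edgeR). None of the other 9 mitochondrial chaperones and co-chaperones was called, among them the Hsp10 gene *Y22D7AL.10* (0.0041, SE 0.16, adjusted p = 0.989, edgeR). Of 70 mitochondrial ribosomal protein genes 1 was called (*mrpl-45*, 0.80, SE 0.12), of 71 nuclear genes of oxidative phosphorylation 4 were higher, and of 16 TCA cycle enzymes 1 was, the aconitase gene *aco-2* (0.40, SE 0.10). The gene that was lower, of 11 genes of the mitochondrial DNA tested, was WBGene00010961 (-1.75, SE 0.41). In comparison, the median log2 fold change over all genes tested was -0.0048. The medians were 0.24 for proteases, 0.23 for the elongation and translation factors, 0.10 for import, 0.08 for the other chaperones and 0.01 for ribosomal proteins. Of the listed cell type and stage markers, those of the intestine and of oocytes were not level between the strains. No marker of molting, sperm, vitellogenins, adult cuticle, body-wall muscle or neurons was called in either direction. The intestine score (mean z score of 8 markers) was -2.07 to -0.62 in N2 and -0.20 to 0.74 in CB4856, with 3 of 8 markers higher in CB4856, and the oocyte score of 13 markers was -1.10 to 2.14 in N2 and -0.98 to 0.48 in CB4856, with 5 of 13 lower. No listed marker was at 0 counts in all libraries. The part of these shifts in the chaperone differences was not tested.

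The letter in the library names (A to G) was taken as the library series, although the sources do not say what it marks. Mean log2 CPM over RIAILs was lowest in series C for all 3 genes, at 9.07 for *hsp-6*, 8.09 for *hsp-60* and 5.89 for *dnj-10*. It was highest in series E for *hsp-6* (9.55) and *hsp-60* (8.76), and in series B for *dnj-10* (6.14). Series differed for *hsp-6* (range of means 0.47, adjusted p = 0.00141) and *hsp-60* (0.67, adjusted p = 0.00278), and *dnj-10* was not called (0.27, adjusted p = 0.131, edgeR's quasi-likelihood test), although 61.4% of the 16686 genes tested were called. With stage scores as covariates *dnj-10* was called as well (range 0.33, adjusted p = 0.00492, edgeR). Series held 28.9% of the variance of *hsp-6*, 26.6% of that of *hsp-60* and 12.7% of that of *dnj-10*. It held 6.68% of the variance of the difference between *hsp-60* and *hsp-6*, against 32.3% for that between *dnj-10* and *hsp-6*. Whether strains were assigned to series by any of their properties is not stated, so series and line cannot be told apart for these means.

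**Figure D2:**
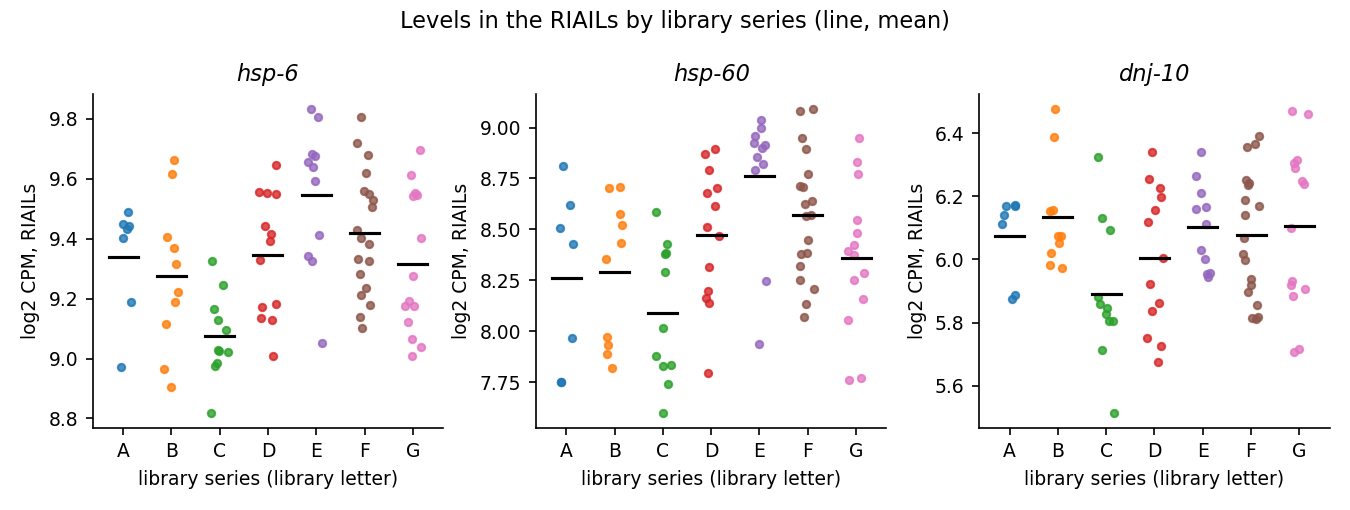
Levels of the 3 genes (vertical axis, log2 CPM) in the 85 RIAILs by library series (horizontal axis). Each point is 1 RIAIL and each line the mean of a series. Series C has the lowest mean for all 3 genes, and series E the highest for *hsp-6* and *hsp-60*.

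The 3 genes were correlated with each other over the RIAILs, and *hsp-6* ran closer to *dnj-10* than to *hsp-60*. Pearson's r was 0.726 for *hsp-6* with *dnj-10* (Spearman's rho 0.737), 0.549 for *hsp-6* with *hsp-60* (rho 0.557) and 0.435 for *hsp-60* with *dnj-10* (rho 0.457). Each r had p = 1e-05, the smallest that 100000 two-sided permutations can give, with an adjusted p of 3.01e-05 over 693 pairs of a member with another mitochondrial gene. The p of rho was also 1e-05 for the first 2 pairs and 2e-05 for the third (adjusted p = 3.22e-05, 3.22e-05 and 5.68e-05). Without the 2 lines farthest from the median of the first gene (QX543 and QX575 for pairs with *hsp-6*, QX543 and QX541 for *hsp-60* with *dnj-10*), r was 0.699, 0.505 and 0.385, respectively. In Williams's test of dependent correlations, *dnj-10* was closer to *hsp-6* than to *hsp-60* (difference in r 0.29, adjusted p = 5.09e-04 over 3 comparisons), and *hsp-6* was closer to *dnj-10* than to *hsp-60* (0.18, adjusted p = 0.0413). *hsp-60* was not closer to *hsp-6* than to *dnj-10* beyond the error (0.11, adjusted p = 0.101). At a given level of *hsp-60*, the partial r of *hsp-6* with *dnj-10* was 0.647 (permutation p = 1e-05), and 0.708 with levels centred within library series. The partial r of *hsp-6* with *hsp-60* given *dnj-10* was 0.376 (permutation p = 4.2e-04), but 0.120 when centred within series (permutation p = 0.270). That of *hsp-60* with *dnj-10* given *hsp-6* was 0.0643 (permutation p = 0.557), and 0.213 when centred (permutation p = 0.0503).

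Library series bore differently on the pairs. With levels centred within series, r was 0.756 for *hsp-6* with *dnj-10*, 0.425 for *hsp-60* with *dnj-10* and 0.393 for *hsp-6* with *hsp-60* (permutation p = 1e-05, 1e-04 and 1.6e-04). Within single series, r of *hsp-6* with *dnj-10* was 0.738 to 0.927 in 6 of 7 series and 0.376 in series E. For *hsp-6* with *hsp-60* it ran from 0.0210 in series C and 0.0290 in series A to 0.603 in series B, and for *hsp-60* with *dnj-10* from 0.224 in series C to 0.715 in series B. Given the stage scores (molting, sperm and oocyte genes), r was 0.801, 0.499 and 0.546, in the order of the centred values. Scores of stage and tissue markers were themselves only weakly related to the 3 genes. Of 27 correlations, 24 with such scores and 3 with the first principal component, r passed for *hsp-6* with adult cuticle (0.367, rho 0.312) and neuron genes (-0.368, rho -0.389), with adjusted permutation p = 0.00675 for both, and for *hsp-6* with vitellogenins (0.274, rho 0.226, adjusted permutation p = 0.04995 for r and 0.170 for rho). It passed for *hsp-60* with neuron genes (-0.338, rho -0.303, adjusted permutation p = 0.0147) and adult cuticle (0.283, rho 0.127, adjusted permutation p = 0.0451 for r and 0.513 for rho). For *dnj-10* it passed with oocyte genes (-0.322, rho -0.317, adjusted permutation p = 0.0172).

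**Figure D3:**
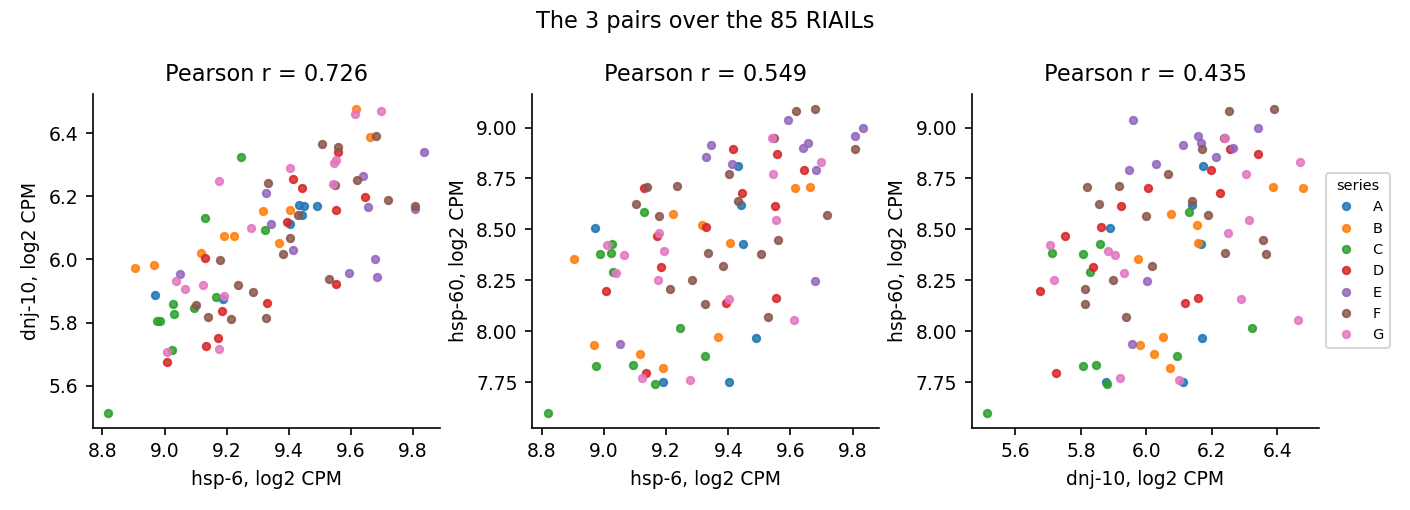
Levels of the 3 pairs of genes (log2 CPM on both axes) in the 85 RIAILs, coloured by library series. *hsp-6* with *dnj-10* forms the narrowest cloud (r = 0.726), and *hsp-60* with *dnj-10* the widest (r = 0.435).

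Levels of the 3 genes were also compared in single lines, each with 1 library. On the log2 scale, the SD of *hsp-60* minus *hsp-6* was 0.32 over RIAILs and 0.24 between libraries of 1 parental strain. That of *dnj-10* minus *hsp-6* was 0.17 over RIAILs and 0.18 between libraries of 1 parental strain. The latter is pooled from 0.26 in N2, where replicate 1 stood apart, and 0.12 in CB4856, so 0.17 lies between the 2 strains. Of the 10 lines with the highest *hsp-6*, 4 were also among the 10 highest for *hsp-60* and 4 among the 10 highest for *dnj-10*, and 2 lines were in the top 10 of all 3. In 24 of 85 lines all 3 genes were above their medians, in 26 all were at or below them, and in 35 they were on different sides. The lowest *hsp-60* relative to *hsp-6* was found in QX528 (log2 difference -1.65), QX515 (-1.56) and QX588 (-1.52), against a median of -0.85. In QX515 *dnj-10* ranked 3rd at 88.1 CPM and *hsp-6* 15th at 783 CPM, while *hsp-60* ranked 68th at 266 CPM. The highest values of this difference were found in QX512 (-0.42), QX585 (-0.43) and QX577 (-0.43). *dnj-10* relative to *hsp-6* was lowest in QX490, QX495 and QX569, all of series E (-3.74, -3.67 and -3.65), and highest in QX544 (-2.92), QX501 (-2.93) and QX555 (-2.93).

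Each gene was next used as the measure that all other genes were regressed on (limma-voom over the 85 RIAILs, adjusted p under 0.05), to find its closest companions. For *dnj-10*, 8.10% of 16685 genes followed it positively and 4.14% negatively. The closest was *tsfm-1*, the mitochondrial elongation factor Ts (r = 0.931, rho 0.942), followed by *tin-44* (0.874), the peroxisome assembly gene *prx-19* (0.846), *dnj-9* (0.838), the ubiquinone synthesis gene *coq-8* (0.833), *tomm-70* (0.828), the half-ABC transporter gene *haf-3* (0.826), *Y73F8A.27* (0.822), *C35D10.5* (0.816) and *coq-1* (0.814), also of ubiquinone synthesis. *C35D10.5* ends at the base before *coq-8* starts on the same strand. The lowest r values were those of *drd-50* (-0.650), the annexin gene *nex-2* (-0.589), *phac-1* (-0.579), *C50F7.5* (-0.566) and *ZK105.1* (-0.564). Among the companions of *dnj-10* by r, *hsp-6* ranked 41st and *hsp-60* 502nd.

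*hsp-6* was followed positively by 6.92% of 16685 genes and negatively by 6.75%. Its closest companions were the elongation factor Tu genes *tufm-1* (r = 0.770) and *tufm-2* (0.765) with *clu-1* (0.769), a gene of mitochondrial distribution, between them. Then came *coq-8* (0.758), *tomm-70* (0.744), *gfm-1* (0.734), the elongation factor G, *atad-3* (0.731), *dnj-10* (0.726), *cox-15* (0.724) of heme A synthesis and *tin-44* (0.723). *coq-8*, *tin-44* and *tomm-70* were among the 10 closest genes of both *hsp-6* and *dnj-10*. The lowest r values were those of *Y69A2AL.2* (-0.671), *srlf-7* (-0.664), *C49C8.5* (-0.651), *Y22D7AL.15* (-0.645) and *T26H5.9* (-0.640). *hsp-60* ranked 99th for *hsp-6*.

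*hsp-60* had fewer followers, 3.58% of 16685 genes positively and 3.56% negatively, and none of its 10 closest genes was among the 10 closest of *hsp-6* or *dnj-10*. They were *mtg-1* (r = 0.646, rho 0.707), whose human counterpart is a GTPase of the mitochondrial ribosome, *cchl-1* (0.638), the cytochrome c heme lyase, *mrpl-2* (0.608), the import receptor gene *tomm-20* (0.5996), *W02A11.1* (0.589), the import pore gene *tomm-40* (0.587), *sco-1* (0.585) of copper delivery to complex IV, *cri-3* (0.583), the prohibitin gene *phb-1* (0.569) and *C47G2.3* (0.566). The lowest were *H20E11.1* (-0.570), *C49C8.5* (-0.567), *pnp-1* (-0.551), a purine nucleoside phosphorylase gene, *F53A9.8* (-0.541) and *Y69A2AL.2* (-0.534). *hsp-6* ranked 17th and *dnj-10* 124th. The count of genes that followed *hsp-60* depended on the model. It was 1192 as fitted, 501 with library series as a covariate and 2106 with stage scores, against 2281, 1797 and 3171 for *hsp-6* and 2041, 3077 and 2512 for *dnj-10*.

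Listed mitochondrial genes followed all 3 genes positively, in the largest numbers *dnj-10*. The lists exclude the 3 genes themselves. Of 70 mitochondrial ribosomal protein genes, 69 followed *dnj-10*, 63 *hsp-6* and 51 *hsp-60*, all positively, with a median r of 0.538, 0.437 and 0.393, where the medians over all genes tested were -0.0314, 0.0048 and 0.0024. Of 71 nuclear genes of oxidative phosphorylation, 62 followed *dnj-10*, 25 *hsp-6* and 17 *hsp-60* (median r 0.445, 0.227 and 0.282). Closest in this list were the assembly genes *cox-15* for *hsp-6* and *cox-18* for *hsp-60* (0.545), and the lowest r with *hsp-6* was that of *nuo-3* (-0.170, adjusted p = 0.377, limma-voom). Stage scores as covariates raised the counts for this list to 65, 43 and 55. The positive counts over all genes tested rose as well, from 1351, 1155 and 598 to 1404, 1731 and 1225. Of 18 import genes, 17 followed *dnj-10*, 15 *hsp-6* and 14 *hsp-60*, and *timm-17B.2* had the lowest r with each (0.176, 0.0824 and 0.0540). Of 10 elongation and translation factors, 9, 9 and 5 followed in the same order. Of 16 enzymes of the TCA cycle, 13, 10 and 8 did. None of the genes in these lists followed any of the 3 genes negatively.

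The other chaperones and the proteases of mitochondria moved with the 3 genes as well, whereas few regulators of the UPRmt did. Of the 9 other mitochondrial chaperones and co-chaperones, 9 followed *dnj-10*, 8 *hsp-6* and 7 *hsp-60*. The prohibitin gene *phb-2* had r of 0.811 with *dnj-10*, 0.680 with *hsp-6* and 0.545 with *hsp-60*, and *bcs-1*, a complex III assembly chaperone, had 0.681, 0.712 and 0.469. Of 10 mitochondrial proteases 7, 7 and 6 followed, led by *lonp-1* for *dnj-10* (0.786) and *hsp-6* (0.706) and by the processing peptidase gene *mppa-1* for *hsp-60* (0.494), and *D2030.2* had the lowest r with each (0.0833, 0.0307 and -0.108). Of the 16 regulators of the UPRmt, 2 followed *hsp-6*, 1 *hsp-60* and 2 *dnj-10*, and with stage scores as covariates 4, 2 and 2. Of all 16685 genes, 6.92%, 3.58% and 8.10% followed positively, and with stage scores 1731, 1225 and 1404 genes did. The median r of the regulators was 0.111, 0.0229 and 0.0062, against 0.610, 0.447 and 0.681 for the chaperones and co-chaperones. *zip-3* followed *dnj-10* (0.526), *hsp-6* (0.522) and *hsp-60* (0.331, adjusted p = 0.0422, limma-voom), and *atfs-1* followed *dnj-10* (0.348) and *hsp-6* (0.356) but was not called for *hsp-60* (0.254, adjusted p = 0.138, limma-voom). Over the 230 other listed mitochondrial genes with a log2 CPM, permutation tests adjusted over the 693 pairs called 193 with *dnj-10* positively and 2 negatively, 161 and 3 with *hsp-6*, and 167 and 1 with *hsp-60*. Only listed genes were tested in this way, so these counts have no share of all genes beside them. They cannot be set against the regression counts, which were adjusted over all genes. In the regressions without covariates, no mitochondrial list held more followers of *hsp-60* than of *hsp-6*.

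Of the 12 protein-coding genes of the mitochondrial DNA 11 were tested. Of these, 5 followed *dnj-10* positively, none followed *hsp-6* or *hsp-60*, and the median r was 0.272, 0.0309 and -0.125. With stage scores as covariates 4 followed *dnj-10*, 2 *hsp-6* and none *hsp-60* positively. Of all 16685 genes, 1404, 1731 and 1225 did so with these covariates, and 1351, 1155 and 598 (8.10%, 6.92% and 3.58%) without them. Whether these counts differ between the 3 genes was not tested. Chaperones of other compartments were listed for comparison. Of 15 cytosolic heat-shock proteins 5 followed *hsp-6*, led by the Hsc70 gene *hsp-1* (0.547) and *hsp-90* (0.413), 1 followed *hsp-60* (*hsp-1*, 0.433) and 2 followed *dnj-10*. Of the 8 subunits of the cytosolic chaperonin, 5 followed *hsp-6*, 5 *hsp-60* and 3 *dnj-10*, and *cct-6* was the closest to each (0.419, 0.448 and 0.402). Endoplasmic reticulum chaperones had a median r of -0.181 for *hsp-6*, -0.127 for *hsp-60* and -0.133 for *dnj-10*. Of 13 none followed positively, 2 followed *hsp-6* negatively and 3 *hsp-60*, with *dnj-7* the lowest for both (-0.350 and -0.372).

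**Figure D4:**
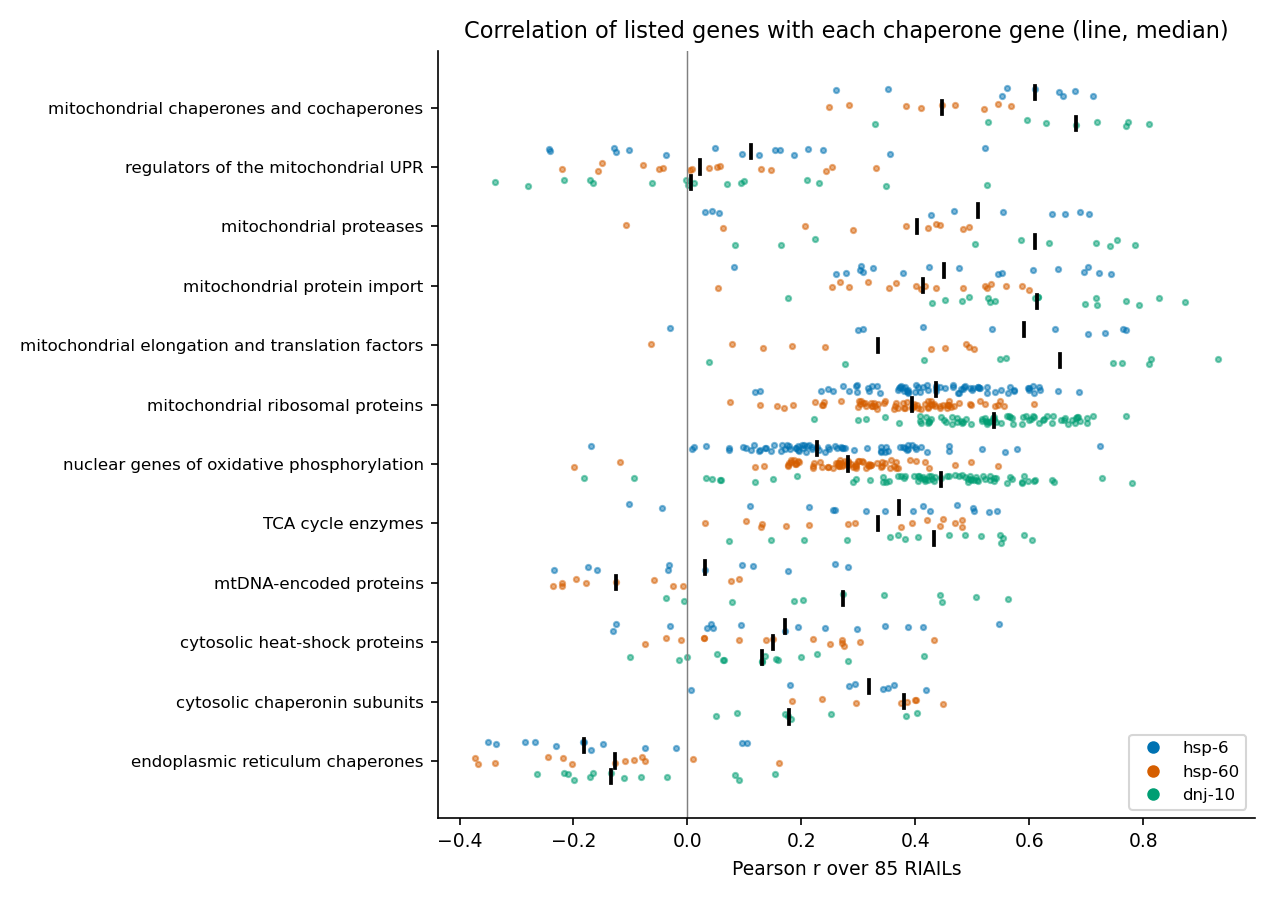
Pearson's r over 85 RIAILs (horizontal axis) between each listed gene and *hsp-6*, *hsp-60* or *dnj-10*, by list (vertical axis). Each point is 1 gene and each line the median of a list. Median r for mitochondrial ribosomal proteins is 0.437, 0.393 and 0.538, and that of endoplasmic reticulum chaperones is below 0 for all 3.

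The difference between *hsp-60* and *hsp-6* followed a small set of genes that lay around *hsp-60*. Only 46 of 16684 genes followed it, 0.0839% positively and 0.192% negatively, and 41 of the 46 were on chromosome III. Of these 41, 29 started within 500 kb of the start of *hsp-60* and 39 within 1000 kb, a wider window that was added after the values were seen. Within 500 kb, 20.4% of 142 genes tested were called (8 positively, 21 negatively), against 0.276% of all genes. None of the genes in the mitochondrial lists followed the difference, but *mtg-1*, which is in none of these lists, did. In all 41 genes r kept its sign when levels were centred within library series, with sizes of 0.395 to 0.667 against 0.391 to 0.628 uncentred. These genes had been picked by their values in the same lines, and series held 6.68% of the variance of the difference, so a kept sign was likely. With series as a covariate, 24 genes followed the difference positively and 28 negatively, against 14 and 32 as fitted.

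*mtg-1*, before *hsp-60* at 1533774 to 1538198 on chromosome III, had the highest r with the difference among genes of a mean log2 CPM of at least 3 (0.566, rho 0.608). It was also the closest gene of *hsp-60* itself, and its r with *hsp-6* was 0.273 and not called (adjusted p = 0.0551, limma-voom). *ddx-35*, a helicase gene at 1544948 to 1554447, had the lowest (-0.581, rho -0.570). Over all levels, the largest sizes within 500 kb were those of the F-box genes *fbxa-138* (-0.628) and *fbxa-25* (-0.626) and of *pals-18* (-0.621), of which the first 2 had a mean log2 CPM below 0. Several other called genes of chromosome III were also that low, among them *Y82E9BR.6* (mean log2 CPM -2.66), *fbxa-10* (-1.52) and *pals-40* (-1.03). Genes with negative r outnumbered those with positive r. Several called genes belonged to the *fbxa* and *pals* families, with either sign, and *fbxa-36* (0.516), *fbxa-28* (0.485) and *pals-40* (0.472) had positive r. Among the called genes off chromosome III were *rpb-12* (0.446), a subunit of RNA polymerase II, on IV, and *spp-17* (0.427) and *eif-6* (0.419) on I. Of the other 2, 1 was on V and 1 was not placed by the annotation.

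Called genes near *hsp-60* were also compared between the parents. Of the 41 genes on chromosome III, 32 were tested between CB4856 and N2 and the other 9 were not. Of the 32, 7 were called as higher and 10 as lower in CB4856, against 8.79% and 7.28% of all genes, and all 17 moved in CB4856 in the direction of their r with the difference. For example, *fbxa-36* was higher in CB4856 (log2 fold change 3.57) and rose with the difference (r = 0.516), whereas *pals-18* (-1.02) and *trp-2* (-2.02) were lower and fell with it (-0.621 and -0.427). *mtg-1* was higher in CB4856 by 0.43 (adjusted p = 0.0215, edgeR). Some of the 17 genes, among them *fbxa-10* and *pals-40*, had a mean log2 CPM below 0. The *hsp-60* to *hsp-6* ratio itself did not separate the parents, as given above. The libraries of the parents are not among those that gave r, so the 2 directions come from separate libraries. Genes close together mostly come from the same parent in a RIAIL, however, so the 17 matches are not independent of each other. Genotypes are not used here, so which parent's allele each line carries at *hsp-60* was not tested. Reads of all lines were aligned to the N2-based WBcel235 genome, and a loss of reads from CB4856 alleles in this region was not tested.

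The same neighbourhood was read for each gene alone. Within 500 kb of *hsp-60*, 28.9% of 142 genes followed *hsp-60* (11 positively, 30 negatively), against 7.14% of all genes, and 35.2% against 12.6% did so with stage scores as covariates. Of the same 142 genes 14.1% followed *hsp-6*, against 13.7% of all genes. Around *hsp-6* on chromosome V, 16.97% of 165 genes followed *hsp-6* against 13.7% of all genes, the closest being *K03B4.1* (0.563), *C37H5.5* (0.507), which is 599 bases away on the opposite strand, and *srr-6* (-0.502). Around *dnj-10*, 18.1% of 221 genes followed it against 12.2% of all genes, and the closest were *prx-19* and *tomm-70*, 176 and 121 kb away, and the mitochondrial thioredoxin reductase gene *trxr-2* (0.693). The Hsp10 gene *Y22D7AL.10* lies 812 bases before *hsp-60* on the opposite strand, yet it was correlated with *dnj-10* (0.596) and *hsp-6* (0.561) as well as with *hsp-60* (0.447), and it did not follow the difference (0.114, adjusted p = 0.794, limma-voom).

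**Figure D5:**
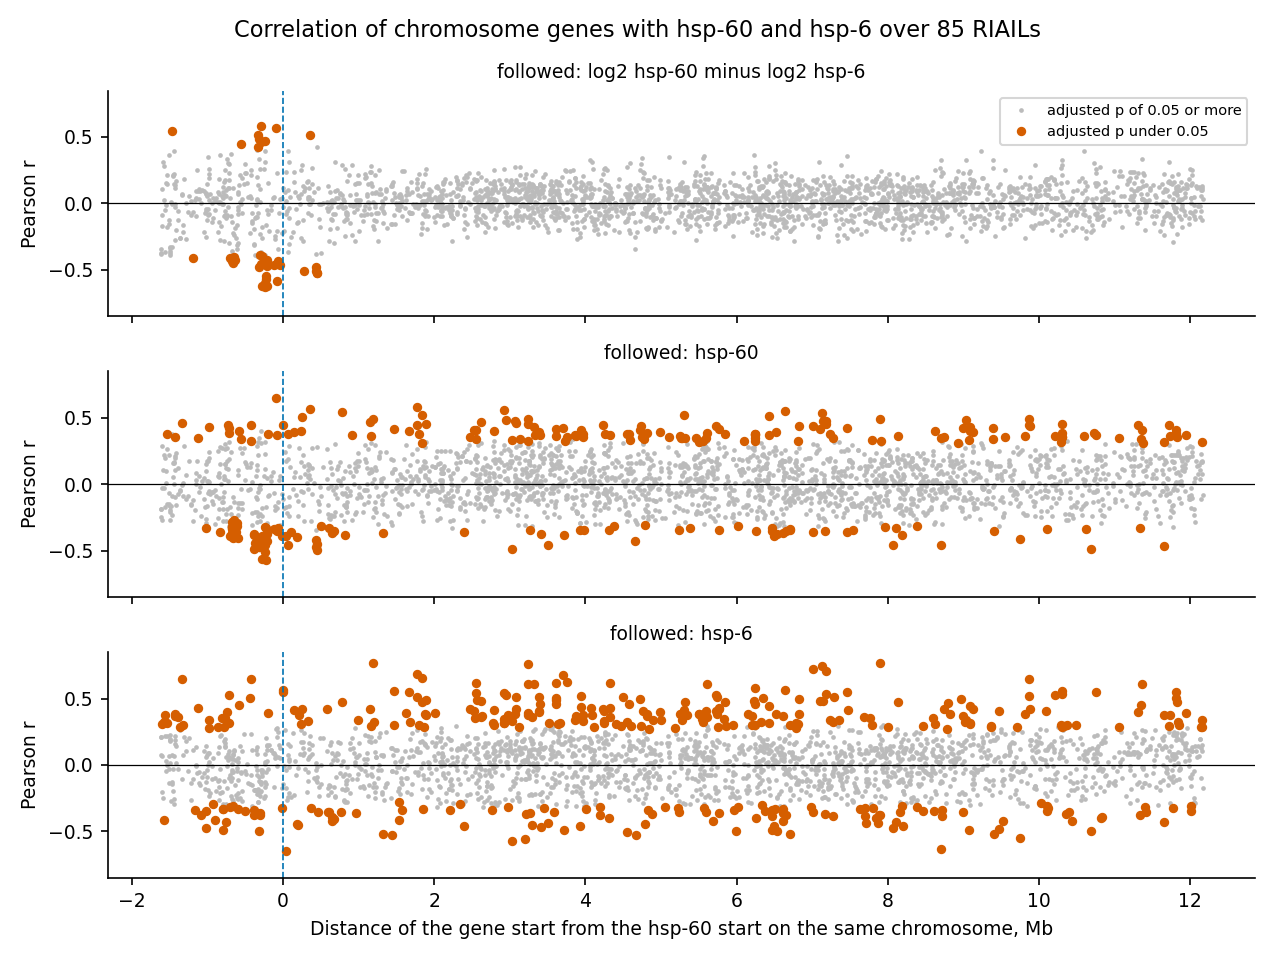
Pearson's r over 85 RIAILs (vertical axes) of each tested gene of chromosome III with the log2 difference between *hsp-60* and *hsp-6* (top), with *hsp-60* (middle) and with *hsp-6* (bottom), against its distance from the start of *hsp-60* (horizontal axis, Mb). Orange points passed an adjusted p of 0.05. In the top panel all 41 called genes lie in the stretch around *hsp-60*, whereas called genes of *hsp-6* are spread along the chromosome.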

How the data were processed

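RNA-seq of 95 libraries was read on the BGISEQ-500. After FastQC and removal of low-quality reads, with no trimming, the authors mapped reads with STAR 2.73a (WBcel235). They deposited unnormalised counts of reads for each gene. Not given in the sources used here are the counter, its strand setting and the annotation release. Groups were taken from the labels. Tests used edgeR 4.0.16 under R 4.3.3 (TMM, filterByExpr, quasi-likelihood tests, Benjamini-Hochberg), limma 3.58.1 and DESeq2 1.42.0, and in Python 3.11.15 with scipy 1.17.1. Log2 CPM used a prior count of 2. The scripts were tested on simulated data. The members, lists and tests were chosen with earlier results of these data known. Of the list entries, 14 were not matched to a gene. Named genes are the 10 highest and 5 lowest r with each member and with the *hsp-60* to *hsp-6* difference (protein-coding, mean log2 CPM of at least 3), the highest 2 and lowest of each list, the 3 of largest size of r within 500 kb, and the 3 most extreme RIAILs, of which a selection is printed. The parental genes of the other lists, *atfs-1* and examples among called genes near *hsp-60* were chosen after their values were seen. The titles call numbers 1 to 4 of 4 N2 and 4 CB4856 libraries batches, which is why they were treated as pairs. Deviations of same-numbered libraries correlated at r = 0.643, 0.176, 0.0836 and -0.463. Those of differently numbered libraries of N2 and CB4856 correlated at -0.625 to 0.571, so these values do not show that a shared number marks similar libraries.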

Additional observations from a re-analysis of the deposited data

How the results depend on the processing

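Of 202 alternative values, 177 kept their direction and their side of the threshold (or, for counts, stayed within 1.5 times), 12 were weaker, 7 stronger and 4 moved. In 2 the sign turned, neither past the threshold in any setting. These were the *hsp-60* to *hsp-6* ratio without N2 replicate 4 (-0.0874, in a range of -0.0874 to 0.136 when 1 library was left out) and the closeness of *hsp-60* to *hsp-6* over *dnj-10* when centred within library series (-0.0325). With the batch number as a replicate block in 8 libraries *hsp-6* fell to 0.53 and was lost (adjusted p = 0.0601), as it was in these libraries with no block (0.52) and when blocked by library letter (0.56, adjusted p = 0.253). *hsp-60* was lost in the 8 libraries with no block (0.62) and with the letter as a block (0.81), and held with the replicate block (0.66). Leaving out each parental library gave log2 fold changes of 0.47 to 0.72 for *hsp-60* (called in 6 of 10 fits), 0.23 to 0.32 for *dnj-10* (called in 1) and 0.49 to 0.66 for *hsp-6* (called in 10). *dnj-10* was called with DESeq2 (0.26) and PC1 as a covariate (0.30), and between library series with stage scores (range 0.33). The sign-flip test over 4 pairs, the replicate block for the ratios, gave -0.32 for *dnj-10* to *hsp-6* and its p was the smallest that 4 pairs allow. Leaving out 1 library gave -0.36 to -0.18 for this ratio. The *hsp-60* to *dnj-10* ratio passed in the 8 numbered libraries (0.45, adjusted p = 0.0429, exact permutation test) and was 0.26 to 0.49 when 1 library was left out. Genes following *hsp-60* numbered 2106 with stage scores and 501 with library series, those following *dnj-10* 3077 with library series, and those following the *hsp-60* to *hsp-6* difference 71 with stage scores. The partial r of *hsp-6* with *hsp-60* given *dnj-10* fell to 0.120 when centred within series. The alternatives for the *hsp-60* to *hsp-6* difference, for partial r and for Williams's test were chosen after seeing the data. The cause of these shifts was not tested. With 4 and 6 parental libraries, and 1 per RIAIL, precision rests on few libraries and not on read depth.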
